A study of Mus musculus with 6 samples.

Results

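The genes described here are 38 genes of autophagy and mitophagy, taken by symbol from a list of the core machinery and its best-known receptors and transcription factors. All 38 were found among the 55401 genes of the deposited count tables. All 38 also passed the filter on low counts that 16807 genes of the series passed, and the lowest count of any of them in any library was 21. They were compared between subcutaneous white adipose tissue (scWAT) of YT-FF and YT-AKO mice.

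Macroautophagy encloses cytoplasm in a double membrane, the autophagosome, and delivers it to the lysosome. A kinase complex and a lipid kinase complex start the membrane, a lipid-transfer system extends it, and an enzyme cascade like that of ubiquitin attaches the small ATG8 proteins (the LC3 and GABARAP proteins) to it, where they bind the receptors that carry cargo. Mitophagy is the same route for mitochondria, and in white fat it is known for the removal of mitochondria when beige adipocytes, the thermogenic fat cells that arise within white depots, return to a white state.

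Total RNA of scWAT was sequenced from 3 male mice of 8 weeks that carried floxed *Yap* and *Taz* alleles without Cre recombinase (YT-FF, labelled wild type) and from 3 male mice of the same age whose fat cells express Cre from the *Adipoq* promoter on the same floxed background (YT-AKO). Both groups therefore shared the floxed alleles, were fed normal chow and were kept at room temperature. The *Adipoq* promoter is active in mature adipocytes, so the other cells of the tissue keep both genes in YT-AKO mice. The libraries were of bulk tissue, in which fewer cells of a type and less RNA per cell cannot be told apart.

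The libraries held 17740987 to 21838493 counted fragments. *Yap1*, with 1622, 1300 and 1295 counts in YT-FF 1, 2 and 3, had 649, 492 and 529 in the libraries labelled YT-AKO. *Wwtr1*, the gene of TAZ, went against the label, with 1818, 1729 and 1918 counts in YT-FF and 3015, 2253 and 2716 in the libraries labelled YT-AKO. These counts cover all exons of each gene and do not isolate the floxed ones. YT-AKO below therefore means the libraries labelled YT-AKO. At the protein level, the study reported by immunoblot that YAP and TAZ were clearly lower in scWAT of YT-AKO mice. The adipocyte markers were present in every library. Their summed CPM (counts scaled to library size with TMM factors) was 8839.9 to 13618 in YT-FF and 15317 to 26318 in YT-AKO. *Fabp4* made up much of that sum, with 4072 to 7199 CPM in YT-FF and 9159 to 20229 CPM in YT-AKO. The other 5 adipocyte markers overlapped between the groups. The 5 markers of mammary epithelium summed to 2.13 to 3.49 CPM per library. Of these, *Krt5* was at 0 in all 6 libraries, and *Epcam* had 1.70 to 2.48 CPM. The summed muscle markers stood out in YT-AKO 1 (3034 CPM against 125 to 445 CPM elsewhere). YT-AKO 2 stood apart from the other libraries, with a TMM factor of 0.777 against 0.954 to 1.16 and a Pearson's r of its log2 CPM of 0.883 to 0.950 with the others, against 0.949 to 0.989 between those. Of the 4 T cell markers, YT-AKO 2 was highest for *Cd3d* (165 CPM against 31.5 to 35.8 CPM) and *Cd3g* (112 CPM against 31.6 to 53.1 CPM) but below YT-FF 1 for *Cd3e* and *Cd8a*.

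Between the groups, 7 of the 38 genes were higher and 0 lower in the mice labelled YT-AKO at an adjusted p under 0.05 (edgeR's quasi-likelihood test, Benjamini-Hochberg adjustment over all tested genes). Of all tested genes, 12.6% were called higher and 9.01% lower. The 7 were 4 genes of the ATG8 family (*Map1lc3a*, *Gabarap*, *Map1lc3b* and *Gabarapl2*), the E1-like enzyme gene *Atg7*, the ULK complex gene *Atg101* and the mitophagy kinase gene *Pink1*. At an unadjusted p under 0.05, edgeR gave 12 of the 38 as higher (22.2% of all tested genes) and 4 as lower (18.6%). The 4 were *Ulk2*, *Rb1cc1*, *Atg2b* and *Wipi1*. DESeq2 called 8 higher, adding *Sqstm1*, where 15% of its tested genes were called, and 1 lower, *Wipi1*, where 11.7% were. limma-voom called 8 higher (background 11.8%) and 0 lower (9.8%). In CPM, every YT-AKO library lay above every YT-FF library for 16 of the 38 genes and below for 7, against 25.7% and 25.8% of all tested genes. The log2 fold changes were positive for 26 and negative for 12 (13 and 25 with library totals in place of TMM), with a median of 0.22 beside -0.02 over all tested genes. The plot of the levels by library groups the genes by role.

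**Figure D1:**
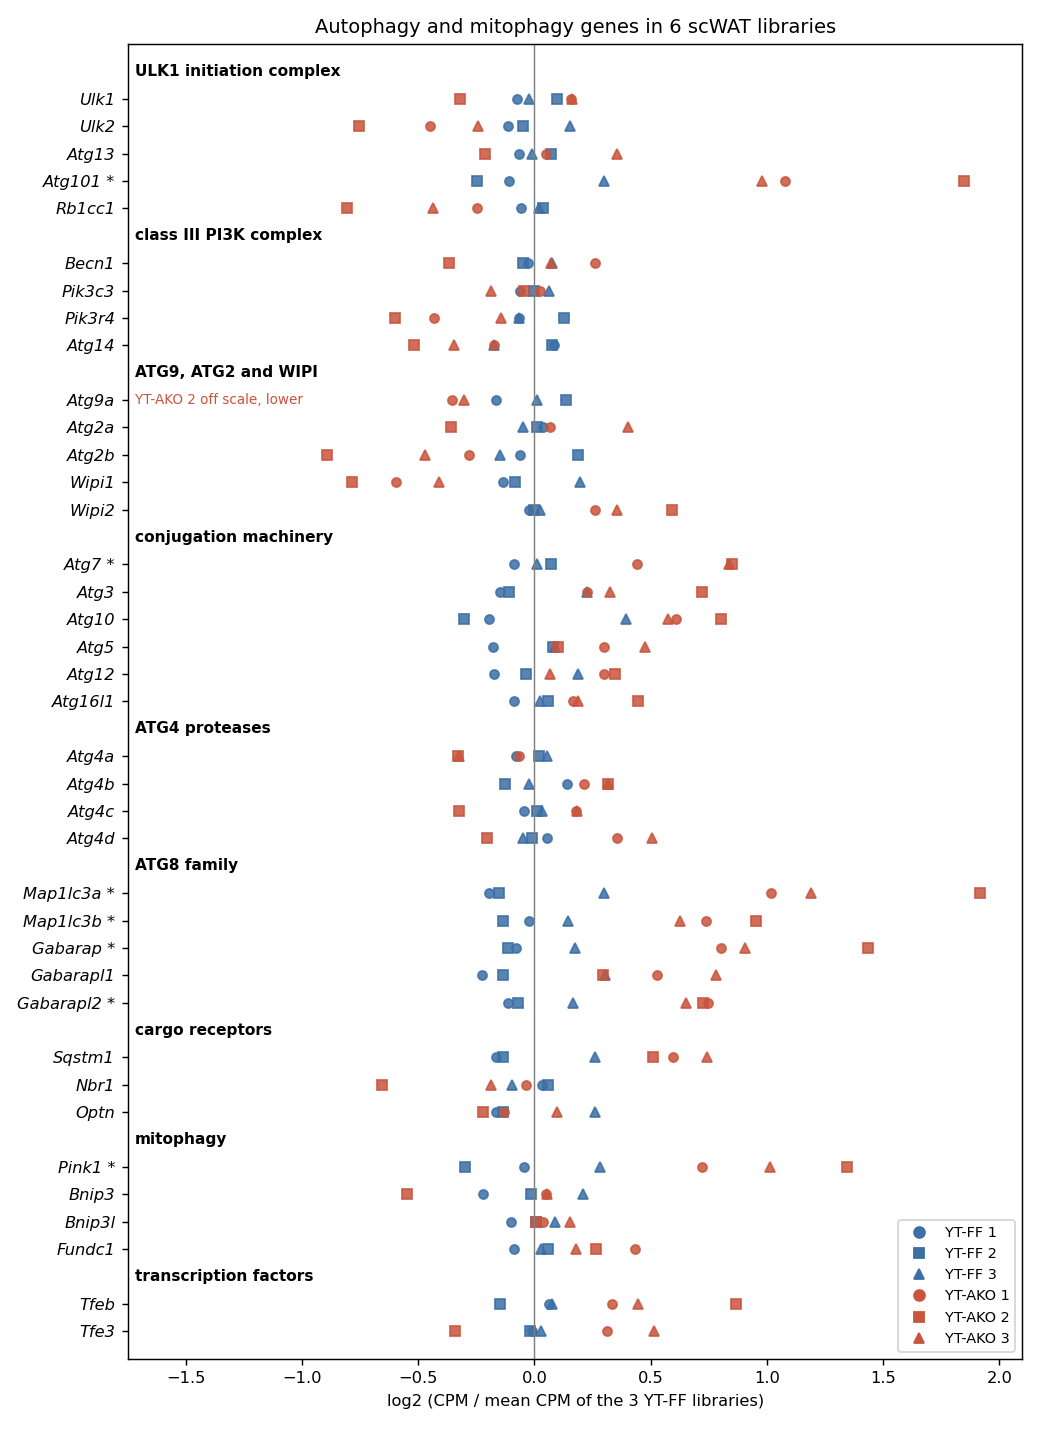
Level of each of the 38 genes in each of the 6 libraries, as the log2 of its CPM over the mean CPM of the 3 YT-FF libraries (x axis), with genes grouped by role (y axis) and an asterisk on the 7 with an adjusted p under 0.05. For 4 of the 5 ATG8-family genes the 3 YT-AKO points lie to the right of the 3 YT-FF points, and YT-AKO 2 lies farthest from the control mean for many genes. Its value for *Atg9a* is off the scale.

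The calls depended on single libraries. Without YT-FF 1 edgeR called 0 of the 38 in either direction (8 higher and 1 lower at an unadjusted p under 0.05), as it called 0 of 17183 tested genes. Without YT-FF 2 it also called 0 of the 38 (7 higher and 1 lower at an unadjusted p under 0.05), and of 17140 tested genes 0 were called higher and 0.0117% lower. Without YT-AKO 2, the library with the lowest TMM factor, 12 were called higher (background 16.9%) and 1 lower (*Wipi1*, background 14%). The 5 added were *Atg4d*, *Gabarapl1*, *Sqstm1*, *Tfeb* and *Tfe3*. Without YT-AKO 1, the library with the muscle markers, the 7 remained and *Tfeb* was added, which made 8 higher (background 12.7%) and 0 lower (8.24%). No gene of the 38 reached an adjusted p under 0.01 with a log2 fold change beyond 1 in edgeR, as did 0.0892% of all tested genes on the higher side and 0.0357% on the lower. DESeq2 gave 4 by that rule (*Map1lc3a*, *Atg101*, *Gabarap* and *Pink1*), against 7.07% of its tested genes on the higher side, and 0 on the lower (3.56%).

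Among the 5 genes of the ULK1 initiation complex, which receives the signal of nutrient state and starts the autophagosome, 1 rose and 0 fell. *Atg101* encodes the subunit that binds and stabilizes ATG13. Its level was 18.0, 16.3 and 23.9 CPM in YT-FF 1, 2 and 3 and 40.9, 69.9 and 38.2 CPM in YT-AKO 1, 2 and 3 (ENSMUSG00000037204.7, chr15:101284272-101290945 of GRCm38, 372 to 1185 raw counts). All 3 YT-AKO libraries were above all 3 YT-FF libraries, and YT-AKO 2 was the highest. The difference was 2.56-fold (log2 fold change 1.36 ± 0.275 SE, adjusted p = 0.0217). The kinase genes *Ulk1* and *Ulk2* had log2 fold changes of 0.02 and -0.47, the scaffold gene *Rb1cc1* (FIP200) -0.48, and the regulatory subunit gene *Atg13* 0.08, with adjusted p from 0.0822 for *Rb1cc1* to 0.949 for *Ulk1*. For *Ulk2* and *Rb1cc1* the YT-AKO values were below all YT-FF values without passing the test, and library totals in place of TMM called both lower (adjusted p = 0.0437 and 0.0454). With a correction for gene length, in contrast, the log2 fold change of *Rb1cc1* turned to 0.08 (adjusted p = 0.694) and that of *Ulk2* was -0.25 (adjusted p = 0.269).

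None of the 4 genes of the class III PI3K complex, which makes the lipid PI3P at the forming membrane, passed the test in edgeR, DESeq2 or limma-voom, and 0 had an unadjusted p under 0.05 in edgeR. The log2 fold changes were -0.07 for the kinase gene *Pik3c3* (VPS34), 0.01 for *Becn1*, which encodes the regulatory subunit Beclin 1, -0.34 for *Atg14*, which directs the complex to autophagy, and -0.38 for the membrane-anchor gene *Pik3r4* (VPS15). The summed level of the 4 was 158, 164 and 163 CPM in YT-FF and 163, 127 and 153 CPM in YT-AKO, so YT-AKO 1 lay within the YT-FF range and YT-AKO 2 was the lowest. Of the exon bases of *Becn1*, 43.9% overlap another gene (*Cntd1*), and fragments from there were not counted for either.

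The genes of membrane supply and lipid transfer also gave 0 calls among 5, with 1 higher (*Wipi2*) and 2 lower (*Wipi1* and *Atg2b*) at an unadjusted p under 0.05 in edgeR. The 2 genes of PI3P-binding WIPI proteins had values on opposite sides of zero. *Wipi2* recruits the ATG16L1 complex and had 95.5, 96.6 and 98.6 CPM in YT-FF and 116, 146 and 124 CPM in YT-AKO, with every YT-AKO library higher (log2 fold change 0.41 ± 0.152 SE, adjusted p = 0.0843). *Wipi1* had 26.3, 27.2 and 33.0 CPM in YT-FF and 19.1, 16.7 and 21.7 CPM in YT-AKO, with every YT-AKO library lower (log2 fold change -0.59 ± 0.178 SE, adjusted p = 0.0510). The test of *Wipi1* missed the threshold narrowly in edgeR and passed it in DESeq2 (adjusted p = 0.0393). The lipid-transfer genes *Atg2a* and *Atg2b* had log2 fold changes of 0.07 and -0.53. That of *Atg2b* became -0.84 with library totals in place of TMM (adjusted p = 0.0498) and 0.0076 with the length correction (adjusted p = 0.975). *Atg9a*, which encodes the scramblase of the seed vesicles, had 21.6, 26.7 and 24.5 CPM in YT-FF and 19.0, 1.24 and 19.7 CPM in YT-AKO. The value of YT-AKO 2 rested on 21 counts, and the fitted difference had a large error (log2 fold change -0.87 ± 0.742 SE, adjusted p = 0.403, and -0.33 without that library). Of the exon bases of *Atg9a*, 32.6% overlap other genes.

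The 6 genes that carry out the 2 conjugation reactions all had positive log2 fold changes, with a median of 0.37, though with library totals *Atg5*, *Atg12* and *Atg16l1* turned negative, and 1 of the 6 passed the test. *Atg7* encodes the E1-like enzyme that activates both ATG12 and the ATG8 proteins. It had 41.6, 46.4 and 44.5 CPM in YT-FF and 59.9, 79.5 and 78.8 CPM in YT-AKO (ENSMUSG00000030314.16, chr6:114643097-114860614, 864 to 1348 raw counts). All YT-AKO libraries were above all YT-FF libraries, and the difference was 1.65-fold (log2 fold change 0.72 ± 0.165 SE, adjusted p = 0.0270). The call of *Atg7* was also absent without YT-FF 3, without YT-AKO 3 and with library totals in place of TMM (adjusted p = 0.133). The E2-like enzyme genes followed with values that did not pass the test. *Atg10*, whose product acts on ATG12, had a log2 fold change of 0.67 (adjusted p = 0.0689), and *Atg3*, whose product acts on the ATG8 proteins, 0.44 (adjusted p = 0.124). The genes of the E3-like complex had 0.30 (*Atg5*), 0.24 (*Atg12*) and 0.27 (*Atg16l1*). In CPM, every YT-AKO value was above every YT-FF value for 5 of the 6 conjugation genes, all but *Atg12* (25.7% of all tested genes). In TPM this held for 0 of the 6 (7.52% of all tested genes). On that scale every YT-AKO value was below every YT-FF value for 2, *Atg3* and *Atg16l1* (54.5% of all tested genes).

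The 4 ATG4 proteases trim newly made ATG8 proteins for conjugation and release them from membranes again. None of the 4 genes passed the test in edgeR, DESeq2 or limma-voom, and 0 had an unadjusted p under 0.05 in edgeR. *Atg4b*, the most active of them on LC3, had 49.7, 41.3 and 44.4 CPM in YT-FF and 52.3, 56.2 and 56.2 CPM in YT-AKO (log2 fold change 0.28, adjusted p = 0.178). The YT-AKO values of *Atg4b* were above those of YT-FF by less than the test required. *Atg4a*, *Atg4c* and *Atg4d* had log2 fold changes of -0.24, 0.03 and 0.25, with overlapping groups. Of the 50-base words of *Atg4a*, 51.2% also occur in other genes, mainly the pseudogene *Atg4a-ps*, so its counts are uncertain.

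The ATG8 family carried most of the calls, with 4 of its 5 genes higher and the fifth positive. These genes encode the proteins that are joined to the lipid of the autophagosome membrane, the LC3 proteins (*Map1lc3a*, *Map1lc3b*) and the GABARAP proteins (*Gabarap*, *Gabarapl1*, *Gabarapl2*). Their summed level was 607, 597 and 752 CPM in YT-FF 1, 2 and 3 and 1129, 1582 and 1183 CPM in YT-AKO 1, 2 and 3. The sign of each of the 5 was positive in all 17 alternative fits as in the main comparison.

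*Map1lc3a* had 106, 109 and 149.6 CPM in YT-FF and 246, 459.9 and 278 CPM in YT-AKO (ENSMUSG00000027602.9, chr2:155276297-155278073, 2486 to 7798 raw counts). The lowest YT-AKO library was above the highest YT-FF library, and YT-AKO 2 was well above the other two. The means were 122 ± 24.3 and 328 ± 115 CPM (SD, n = 3), a 2.70-fold difference (log2 fold change 1.43 ± 0.278 SE, adjusted p = 0.0204) and the largest log2 fold change of the 38.

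*Gabarap* had 205, 200.2 and 245 CPM in YT-FF and 378, 587 and 407 CPM in YT-AKO (ENSMUSG00000018567.14, chr11:69991143-69994951, 4556 to 9950 raw counts). The groups did not overlap, and YT-AKO 2 was again the highest. The difference was 2.11-fold (log2 fold change 1.08 ± 0.219 SE, adjusted p = 0.0219).

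*Map1lc3b*, the LC3 gene whose lipidated protein is the usual marker of autophagosomes, had 181, 167 and 203 CPM in YT-FF and 307, 356 and 283 CPM in YT-AKO (ENSMUSG00000031812.16, chr8:121590361-121598760, 3802 to 6029 raw counts). Every YT-AKO library was above every YT-FF library, by 1.72-fold in the fit (log2 fold change 0.78 ± 0.171 SE, adjusted p = 0.0249). The call was absent with library totals in place of TMM (adjusted p = 0.0706) and also without YT-FF 3.

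*Gabarapl2* (GATE-16) had 44.6, 45.9 and 54.1 CPM in YT-FF and 80.9, 79.7 and 75.7 CPM in YT-AKO (ENSMUSG00000031950.7, chr8:111940703-111953612, 1045 to 1391 raw counts). The 3 YT-AKO values lay close together and above all YT-FF values (1.63-fold, log2 fold change 0.71 ± 0.147 SE, adjusted p = 0.0228). The call was absent with library totals in place of TMM (log2 fold change 0.39, adjusted p = 0.117). *Gabarapl1* had 69.9, 74.4 and 101 CPM in YT-FF and 118, 100.4 and 140.4 CPM in YT-AKO, where YT-AKO 2 fell within the YT-FF range (log2 fold change 0.55 ± 0.204 SE, adjusted p = 0.0854). Of its exon bases, 28.3% overlap another gene (*1700101I11Rik*), and 12.2% of the 50-base words of *Gabarapl2* occur in other genes, so fragments of both could be lost in counting.

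Levels were compared between the 5 genes in TPM, which scales counts to exon length and then to the library. In the YT-FF libraries *Gabarap* (445 ± 29.1 TPM, SD, n = 3) and *Map1lc3a* (389 ± 59.6 TPM) were the most abundant. Their ranges overlapped, but within each of these 3 libraries *Gabarap* was the higher. It had 428, 429 and 479 TPM in YT-FF 1, 2 and 3, against 345, 365 and 457 TPM for *Map1lc3a*. *Gabarapl1* (153 ± 24.4 TPM), *Map1lc3b* (92.5 ± 4.80 TPM) and *Gabarapl2* (78.5 ± 5.11 TPM) followed, each separated from the next. In YT-AKO the means were 634 ± 50.9 TPM for *Map1lc3a*, 576 ± 21.3 TPM for *Gabarap*, 147 ± 53.0 TPM for *Gabarapl1*, 99.7 ± 15.6 TPM for *Map1lc3b* and 81.9 ± 19.3 TPM for *Gabarapl2*. Only *Map1lc3a* and *Gabarap* kept separate groups on this scale, while the groups overlapped for the rest, with YT-AKO 2 the lowest library for each.

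The summed ATG8-family level was 1159 ± 121 TPM in YT-FF and 1539 ± 75.4 TPM in YT-AKO (SD, n = 3) and did not overlap between the groups. *Map1lc3a* held 32.2%, 33.0% and 35.2% of that sum in YT-FF and 38.1%, 46.4% and 39.5% in YT-AKO (two-sided exact permutation test, p = 0.1, the smallest that 3 against 3 libraries allow). The share of *Gabarap* was 38.5% ± 1.52 in YT-FF and 37.5% ± 0.458 in YT-AKO (exact p = 0.4), and on the CPM scale this difference had the opposite sign, 1.65 points higher in YT-AKO. The shares of *Gabarapl1* (13.2% and 9.44%), *Map1lc3b* (8.02% and 6.47%) and *Gabarapl2* (6.80% and 5.30%) were lower in every YT-AKO library than in every YT-FF library (exact p = 0.1 each). With 3 libraries per group none of the 5 shares compared could pass a threshold of 0.05.

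**Figure D2:**
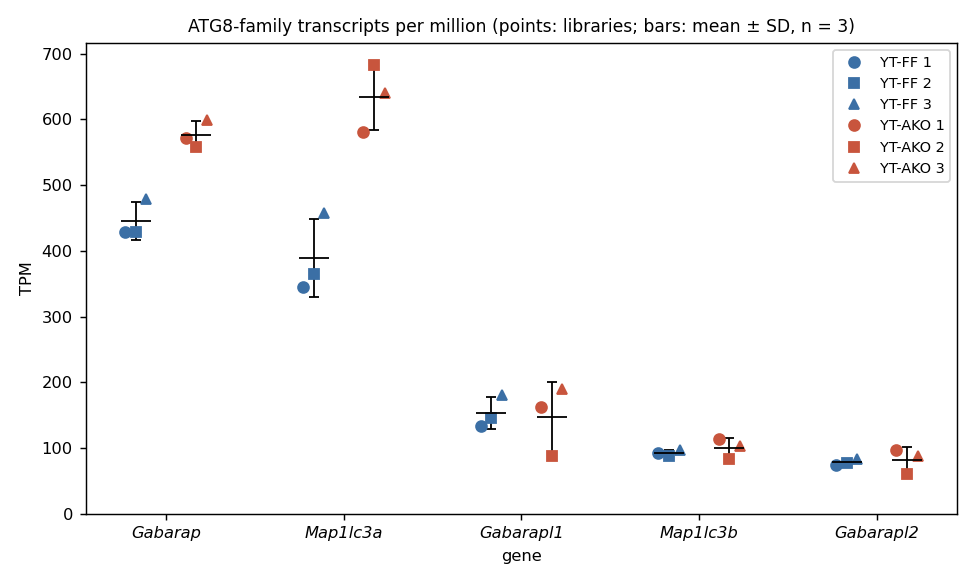
Level of the 5 ATG8-family genes in TPM (y axis) in each library (points), with the mean and SD of the 3 libraries of a group as bars. *Map1lc3a* and *Gabarap* are the most abundant and separate the groups, while YT-AKO 2 is the lowest library for *Gabarapl1*, *Map1lc3b* and *Gabarapl2*.

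Since 4 genes of this family were called together, the 250 bases before each RefSeq transcription start (GRCm38.p6) were searched on both strands for 3 motifs, and the matches are shown with the motif in capitals. The first was CATTCC, the core recognized by TEAD factors, one route through which YAP and TAZ act (its other strand reads GGAATG). For *S100b*, the study reported that YAP and TAZ act without binding TEAD factors. The second was CACGTG, a palindrome and the E-box bound by TFEB and TFE3. The third was AAGGTCA, the core site of estrogen-related receptors (its other strand reads TGACCTT). None of the 3 contains another. RefSeq promoters were given for 31 of the 38 genes, 37 in all, not for *Map1lc3a*, *Becn1*, *Rb1cc1*, *Atg12*, *Atg16l1*, *Bnip3l* and *Pik3c3*. CATTCC occurred in 4 of the 37 promoters (10.8%), against 12.6% of 32817 promoters. In the ATG8 family it stood 216 bases before the start of *Gabarap*, in bases that GENCODE gives as an exon of *Gabarap*, 120 and 189 before that of *Gabarapl2*, in no annotated gene, and 224 before that of *Map1lc3b*, within the span but in no exon of *Gm20388*:
*Gabarap*, chr11:69991142-69991171, plus strand: ctgagccttgagCATTCCctgggtgtctgc
*Gabarapl2*, chr8:111940571-111940600, plus strand: tacgtcagtctcCATTCCcaggagcgctcc
*Gabarapl2*, chr8:111940502-111940531, plus strand: atcctgaaactcCATTCCagtcactaattc
*Map1lc3b*, chr8:121590202-121590231, plus strand: aaggactgaaggGGAATGaagtctgcagga

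The promoter of *Gabarapl1*, the ATG8 gene that was not called, held none of the 3 motifs, nor did those of *Atg101* and *Pink1*, which were called. The fourth promoter with CATTCC was that of *Atg3*. CACGTG occurred in 4 of the 37 promoters (10.8%), against 6.02% of all promoters. Of the 4 genes, 3 belong to the conjugation machinery, a grouping seen after the search, and *Atg7* was called. The RefSeq start of *Atg7* used here lies inside the gene, which begins at chr6:114643097. The motif could not be sought for *Atg12* and *Atg16l1*, conjugation genes without a promoter sequence. It stood 132 bases before the RefSeq start of *Atg7*, in an intron of the longer GENCODE gene, 71 and 94 before that of *Atg3*, 14 before that of *Atg5* and 108 before that of *Bnip3*, in no annotated gene for *Atg3*, *Atg5* and *Bnip3*:
*Atg7*, chr6:114670952-114670981, plus strand: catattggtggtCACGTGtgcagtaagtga
*Atg3*, chr16:45158746-45158775, plus strand: ggagagtcgagtCACGTGaggccttaggtg
*Atg3*, chr16:45158723-45158752, plus strand: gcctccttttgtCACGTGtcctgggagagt
*Atg5*, chr10:44268313-44268338, plus strand: cggagcgcttgcCACGTGgtcttggt
*Bnip3*, chr7:138909597-138909626, minus strand: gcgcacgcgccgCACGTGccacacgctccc

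AAGGTCA occurred in 1 of the 37 promoters, that of *Atg4a* (2.7%, against 4.08% of all promoters). These matches describe letters in a short window only.

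Of the 3 cargo receptor genes, none passed the test in edgeR, and *Sqstm1* lay at the threshold. *Sqstm1* encodes p62, which binds ubiquitinated cargo and LC3 and is itself degraded by autophagy. It had 234, 238 and 313 CPM in YT-FF and 395, 372 and 438 CPM in YT-AKO (chr11:50199366-50210827, 5422 to 7413 raw counts). All YT-AKO libraries were above all YT-FF libraries, and the 1.54-fold difference (log2 fold change 0.62 ± 0.186 SE) had an adjusted p of 0.0501. DESeq2 (adjusted p = 0.0199) and limma-voom (adjusted p = 0.0431) called it higher. Of its exon bases, 17.3% overlap *Mrnip*. *Nbr1*, the receptor gene closest to it in role, had a log2 fold change of -0.27 (adjusted p = 0.311), and *Optn*, whose product acts in mitophagy downstream of PINK1, -0.08 (adjusted p = 0.765), both with overlapping groups.

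The 4 mitophagy genes gave 1 call, that of the ubiquitin-dependent route. *Pink1* encodes the kinase that accumulates on depolarized mitochondria and activates Parkin. It had 158, 133 and 199 CPM in YT-FF and 269, 414 and 329.9 CPM in YT-AKO (ENSMUSG00000028756.12, chr4:138313409-138326307, 3017 to 7026 raw counts). The groups did not overlap, YT-AKO 2 was the highest, and the difference was 2.07-fold (log2 fold change 1.05 ± 0.230 SE, adjusted p = 0.0250). In TPM the values were 228, 196 and 268 in YT-FF and 281, 272 and 336 in YT-AKO, again without overlap.

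The receptors that sit in the outer mitochondrial membrane and bind ATG8 proteins directly did not pass the test. *Bnip3* had 244, 282 and 329 CPM in YT-FF and 295, 195 and 296 CPM in YT-AKO (log2 fold change -0.12 ± 0.220 SE, adjusted p = 0.698). The low value came from YT-AKO 2, and without that library the log2 fold change was 0.05. *Bnip3l* (NIX) had 120.0, 129 and 137 CPM in YT-FF and 132, 129 and 143 CPM in YT-AKO, which overlapped throughout (log2 fold change 0.07 ± 0.144 SE, adjusted p = 0.749). *Fundc1* had 25.9, 28.6 and 28.0 CPM in YT-FF and 37.1, 33.0 and 31.1 CPM in YT-AKO, slightly higher in every YT-AKO library (log2 fold change 0.30 ± 0.149 SE, adjusted p = 0.173, and -0.03 with library totals). Of the 50-base words of *Bnip3*, 47.2% occur in other genes, and 20.8% of those of *Bnip3l* occur in the pseudogene *Bnip3l-ps*, so their counts are uncertain.

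The transcription factors TFEB and TFE3 drive genes of autophagy and lysosomes and are controlled mainly through their location in the cell. *Tfeb* had 39.4, 34.1 and 39.8 CPM in YT-FF and 47.6, 68.8 and 51.4 CPM in YT-AKO (772 to 1167 raw counts). Every YT-AKO library was higher, but the difference missed the threshold in edgeR (log2 fold change 0.57 ± 0.184 SE, adjusted p = 0.0598). *Tfe3* had 46.3, 46.1 and 47.5 CPM in YT-FF and 57.8, 36.8 and 66.6 CPM in YT-AKO (624 to 1127 raw counts). YT-AKO 1 and YT-AKO 3 were above the YT-FF values and YT-AKO 2 below them (log2 fold change 0.20 ± 0.222 SE, adjusted p = 0.512). Without YT-AKO 2 both genes were called higher (adjusted p = 0.0400 and 0.0288).

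The fold changes of the 38 genes moved with gene length, as did those of the whole series. For each library, the deviation of log2 CPM from the mean of the 6 was correlated with length over all tested genes. Spearman's rho was 0.34, 0.36 and 0.31 in YT-FF 1, 2 and 3. It was -0.18, -0.38 and -0.20 in YT-AKO 1, 2 and 3. The length trend thus differed between the groups and was most negative in YT-AKO 2. The 7 called genes had a median summed exon length of 2325 bases and the other 31 one of 5669 bases, beside 2407 bases for all genes called higher, 7416 for all called lower and 3888 for all tested genes. Length and log2 fold change had a Spearman's rho of -0.44 in the 38 genes and -0.38 in all tested genes, given as a description since the genes share the same libraries. Among the called genes, *Map1lc3a* (1181 bases), *Atg101* (1597 bases) and *Gabarap* (1844 bases) were short, while *Atg7* (6968 bases) and *Map1lc3b* (7517 bases) were long. When all tested genes were divided into 20 bins of length, 6 of the 7 called genes, all but *Gabarapl2*, and 9 of the other 31 lay above the upper quartile of their bin. The 7 had been called for a positive difference, which by itself favours a high place in a bin. Their count therefore cannot separate the calls from length. *Atg7* (upper quartile 0.16) and *Map1lc3b* (0.06) exceeded it by the most among the called genes, and *Gabarap* (1.06) by the least. A fit with a length correction in each library called 8 of the 38 higher (background 9.57%) and 0 lower (3.92%; 2 lower at an unadjusted p under 0.05, 16 higher). It kept *Atg101*, *Atg7*, *Gabarap*, *Map1lc3a*, *Map1lc3b* and *Pink1*, added *Wipi2* (adjusted p = 0.0369) and *Atg4b* (adjusted p = 0.0425), and left *Gabarapl2* just outside (adjusted p = 0.0501). The part of length in each result was otherwise not tested.

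**Figure D3:**
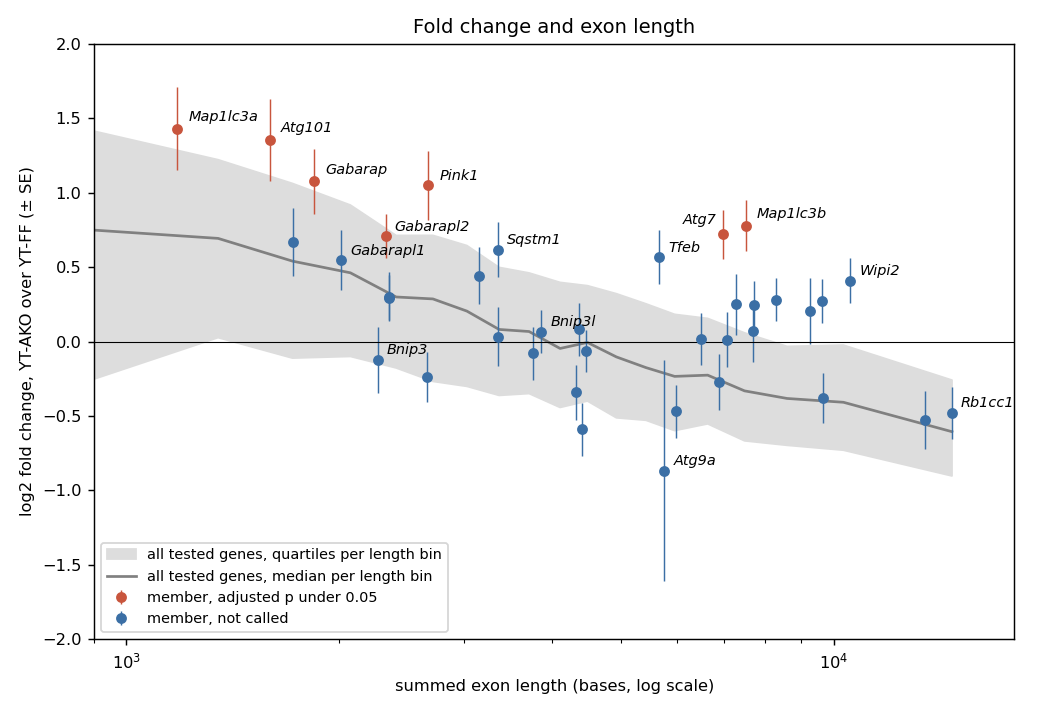
Log2 fold change of YT-AKO over YT-FF (y axis, points with SE) against summed exon length in bases (x axis, log scale) for the 38 genes, with the median and quartiles of all tested genes in 20 length bins in grey. The grey line falls with length, and of the called genes *Atg7* and *Map1lc3b* lie far above it.

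In TPM, a scale on which the whole series shifted, every YT-AKO library was above every YT-FF library for 4 of the 38 genes (*Map1lc3a*, *Gabarap*, *Atg101* and *Pink1*) and below for 21, against 7.52% and 54.5% of all tested genes. *Atg101* had 43.3, 40.4 and 54.0 TPM in YT-FF and 71.5, 76.7 and 65.1 TPM in YT-AKO. *Atg7*, called on the CPM scale, had 22.9, 26.3 and 23.0 TPM in YT-FF and 24.0, 19.99 and 30.8 TPM in YT-AKO, with overlap. Scaling by library totals in place of TMM moved the median log2 fold change of all tested genes from -0.02 to -0.34 and that of the 38 genes from 0.22 to -0.09. With it, 4 of the 38 were called higher (*Atg101*, *Gabarap*, *Map1lc3a* and *Pink1*, background 6.77%) and 4 lower (*Ulk2*, *Rb1cc1*, *Atg2b* and *Wipi1*, background 16.8%). *Map1lc3a*, *Gabarap*, *Atg101* and *Pink1* were the genes in common to both scalings and TPM. None of these 4 was called without YT-FF 1, without YT-FF 2 or with the replicate number as a block.

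The other genes of the route were taken as 6 lists with 112 tested genes, of which 25 were called higher and 6 lower (12.6% and 9.01% of all tested genes). The vacuolar ATPase, the proton pump that acidifies the lysosome, had the highest share, with 8 of its 15 subunit genes higher, 0 lower (0 also at an unadjusted p under 0.05) and a median log2 fold change of 0.79. Among them *Atp6v1f* had a log2 fold change of 1.23 (adjusted p = 0.0273), *Atp6v0b* 1.12 (adjusted p = 0.0203) and *Atp6v1e1* 1.10 (adjusted p = 0.0185). All 15 subunit genes had positive values, as 11 of them did with library totals in place of TMM, where 4 were called higher. Without YT-FF 1 and without YT-FF 2 edgeR called 0 of the 15 (8 higher at an unadjusted p under 0.05 in each), and without YT-FF 3 it called 4.

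Of 26 genes of lysosomal enzymes and membrane proteins, 5 were higher and 0 lower (2 at an unadjusted p under 0.05), with a median of 0.29. The protease gene *Ctsd* had 583, 528 and 875 CPM in YT-FF and 1197, 2635 and 1229 CPM in YT-AKO (log2 fold change 1.35, adjusted p = 0.0396), where YT-AKO 2 was far above the others. *Hexa*, a subunit of the enzyme that breaks down gangliosides, had a log2 fold change of 1.01 and the protease gene *Ctsb* one of 0.78. Also higher were *Gusb* (0.61) and *Neu1* (0.46), genes of enzymes that remove sugars, named after their values were seen.

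Of 30 genes that report amino acids and energy to the pathway, 7 were higher and 3 lower. Subunit genes of the Ragulator complex, which anchors mTORC1 on the lysosome, had the largest log2 fold changes, 1.61 for *Lamtor2* (adjusted p = 0.0340), 1.53 for *Lamtor4* (adjusted p = 0.0448) and 1.13 for *Lamtor1* (adjusted p = 0.0180). For *Lamtor2* the level was 35.0, 28.4 and 41.6 CPM in YT-FF and 67.0, 185 and 67.8 CPM in YT-AKO, so YT-AKO 2 was far above the rest. The 3 that fell, named after their values were seen, were *Deptor* (-1.08) and *Tsc1* (-0.64), which encode inhibitors of mTOR signalling, and *Sesn3* (-0.99), a sestrin gene, again as log2 fold changes. Inhibitor genes did not all fall, since *Akt1s1*, which encodes another inhibitor of mTORC1, rose (0.998, adjusted p = 0.0177). *Prkag1* (1.11), *Lamtor5* (1.03) and *Stk11* (0.57) also rose. These were named after their values were seen as well.

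Of 19 other genes of selective autophagy, 4 were higher and 1 lower. *Tex264*, the receptor gene for the endoplasmic reticulum, rose (log2 fold change 1.43, adjusted p = 0.0201), as did *Phb2*, which encodes a mitophagy receptor of the inner mitochondrial membrane (1.10, adjusted p = 0.0206), and *Mul1*, which encodes a mitochondrial ubiquitin ligase (0.96, adjusted p = 0.0182). The fourth was *Fkbp8* (0.89), and the gene that fell was *Retreg1* (-0.80), another receptor gene for the endoplasmic reticulum, both named after their values were seen. Of 17 other genes of autophagosome formation and fusion, 1 was higher and 2 lower. The fusion SNARE gene *Ykt6* rose (0.54, adjusted p = 0.0405), and *Rubcn*, which encodes the autophagy inhibitor Rubicon, and *Epg5*, whose product tethers autophagosomes to lysosomes, fell (-0.74 and -0.71, adjusted p = 0.0262 and 0.0264). None of the 5 genes of other upstream transcription factors passed the test in edgeR (1 lower at an unadjusted p under 0.05).

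**Figure D4:**
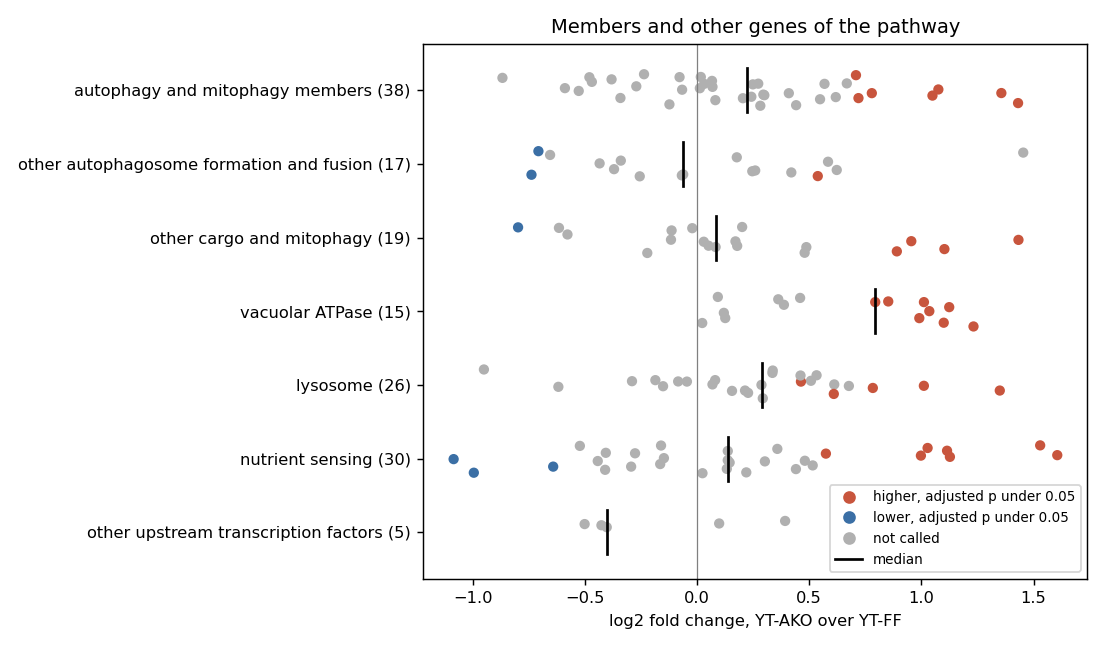
Log2 fold change of YT-AKO over YT-FF (x axis) for every tested gene of the 38 and of the 6 other lists (y axis, number of genes in brackets), with the median of each list as a bar and calls at an adjusted p under 0.05 in colour. The vacuolar ATPase list has no value below 0 in this fit, while the other lists lie on both sides.

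Markers of thermogenic adipocytes had a median log2 fold change of 3.94, beside 0.22 for the 38 genes. Of the 7 markers 6 were higher in YT-AKO, and their summed level was 163, 167 and 233 CPM in YT-FF and 1656, 3613 and 1792 CPM in YT-AKO, with *Ucp1*, which uncouples respiration, at 6.78, 3.69 and 9.84 CPM and 144, 395 and 243 CPM. YT-AKO 2 had the highest sum, with *Cox8b* (1527 CPM) and *Cidea* (1491 CPM) its largest parts. The markers did not all follow the sum. YT-AKO 2 was the lowest YT-AKO library for *Dio2* (31.5, 15.9 and 22.9 CPM in YT-AKO 1, 2 and 3). So it was for *Ppargc1a* (11.7, 5.19 and 11.2 CPM), and for *Elovl3* it was below YT-AKO 1 (28.7, 10.4 and 6.15 CPM). YT-AKO 2 also had the highest CPM of *Map1lc3a*, *Gabarap*, *Atg101* and *Pink1*. In TPM, however, YT-AKO 2 was the lowest YT-AKO library for *Gabarap* and *Pink1*. Of the 6 adipocyte markers 1 was higher (*Fabp4*, log2 fold change 1.34, adjusted p = 0.0475). Of the 4 B cell markers 2 were lower (summed 731 to 833 CPM in YT-FF and 472 to 733 CPM in YT-AKO), and of the 4 endothelial markers 1 was lower (517 to 539 CPM and 338 to 457 CPM). The 7 skeletal muscle markers gave 1 call, with a summed 125 to 445 CPM in YT-FF and 211 to 3034 CPM in YT-AKO. None of the 6 macrophage markers was called (1048 to 1227 CPM and 1389 to 1693 CPM), with 1 at an unadjusted p under 0.05. Of the 4 fibroblast markers 1 was higher (*Pi16*, log2 fold change 0.75, adjusted p = 0.0275). Their summed level did not overlap, with 1475, 1875 and 1961 CPM in YT-FF and 2790, 2123 and 3100.1 CPM in YT-AKO. Singly, however, *Col1a1*, *Dpt* and *Pdgfra* overlapped between the groups. In YT-AKO 2, *Col1a1* (711 CPM against 822 to 1207 CPM) and *Pdgfra* (38.3 CPM against 56.0 to 74.5 CPM) were below every YT-FF library. The part of these cell types in the levels of the autophagy genes was not tested.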

How the data were processed

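The series holds RNA-seq libraries of scWAT, 3 of YT-FF and 3 of YT-AKO, grouped by the genotype in the labels. Per the labels and the study's methods, the authors aligned paired-end reads (HISAT2, mm10) and used featureCounts, ignoring strand and discarding multi-mapped and multi-gene fragments. The deposited values are the resulting raw counts per gene, with no normalization. The 37 mitochondrial genes were at 0 in every library.

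Counts were analysed in R 4.3.3 with edgeR 4.0.16 (TMM, filterByExpr with a minimum count of 10 and a minimum total of 15, quasi-likelihood test without robust estimation, Benjamini-Hochberg adjustment over 16807 genes). The common dispersion corresponded to a biological coefficient of variation of 0.288. CPM values include the TMM factors, and TPM values divide counts by summed exon length. DESeq2 1.42.0, limma-voom (limma 3.58.1), other scalings and filters, a length correction (spline with 6 degrees of freedom), the replicate number as a block and each library left out were alternatives, and the fits were tested on simulated counts. The p-values measure the spread between 3 mice per group, the number given in the study's methods. Overlapping exons and shared 50-base words came from the GENCODE annotation. The genes and lists were chosen with earlier results of these data known. All 38 genes are named, and from each other list up to 3 genes with the largest fold change among those that passed. Genes outside these rules that appear as markers were named after their values were seen.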

Additional observations from a re-analysis of the deposited data

How the results depend on the processing

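The 7 calls rested on 3 libraries per group, and leaving out 1 library moved them. Over the 6 fits that each left out 1 library, 0 to 12 of the 38 genes were called higher and 0 to 1 lower, 0 to 2 passed the stricter rule, and the median log2 fold change of the 38 ran from 0.070 (without YT-AKO 3) to 0.23. Of all tested genes 0 to 2925 were called higher and 0 to 2424 lower, and of the other lists 0 to 38 and 0 to 12. *Atg101*, *Map1lc3a*, *Gabarap*, *Gabarapl2* and *Pink1* were called in 4 of the 6 fits, all but those without YT-FF 1 or YT-FF 2, *Map1lc3b* in 3 and *Atg7* in 2.

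The numbers of the libraries did not pair them: the deviations of same-numbered libraries correlated with r = 0.139, -0.134 and -0.0911, and of the YT-FF libraries only YT-FF 1 correlated best with its own number. With the replicate block, 0 of the 38 genes were called higher and 0 lower (11 and 3 at an unadjusted p under 0.05), 24 and 9 of all tested genes, and 0 and 0 of the other lists. With the length correction and the replicate block together, 0 of the 38 genes, 46 and 19 of all tested genes and 0 and 0 of the other lists were called. The length correction alone called 659 of all tested genes and 2 of the other lists lower.

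Library totals in place of TMM called 4 of the 38 genes higher and 4 lower, 1137 and 2828 of all tested genes and 12 and 14 of the other lists, with a median log2 fold change of -0.089 for the 38. DESeq2, DESeq2 size factors in edgeR, upper-quartile normalization and a filter of 10 counts in each library each called 1 gene (*Wipi1*) lower. By the stricter rule DESeq2 gave 4 and edgeR without a filter on low counts 4, against 0. Of the 418 fold changes of the 38 genes under the 11 alternatives that kept all libraries, 356 stayed on the same side of zero and of the threshold, 14 passed it anew, 18 no longer passed it and 30 changed sign. Of 228 with a library left out, 190, 8, 17 and 13 did so.

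None of the 7 called genes changed sign. The genes that did had log2 fold changes of -0.53 (*Atg2b*) to 0.30 (*Atg5*) in the comparison reported above, and *Rb1cc1* (-0.48) and *Atg2b*, called lower with library totals, turned positive with the length correction. With library totals the changes were *Ulk1* (-0.29), *Atg13* (-0.23), *Becn1* (-0.29), *Atg2a* (-0.23), *Atg5* (-0.013), *Atg12* (-0.086), *Atg16l1* (-0.065), *Atg4b* (-0.047), *Atg4c* (-0.27), *Atg4d* (-0.054), *Bnip3l* (-0.25), *Fundc1* (-0.029) and *Tfe3* (-0.092). With the length correction they were *Rb1cc1* (0.078), *Pik3c3* (0.047), *Pik3r4* (0.050), *Atg2b* (0.0076) and *Nbr1* (0.0031), and with the replicate block added *Rb1cc1* (0.080), *Pik3c3* (0.043), *Pik3r4* (0.045), *Atg2b* (0.0098) and *Atg4c* (-0.0097). With upper-quartile normalization they were *Ulk1* (-0.025), *Becn1* (-0.028) and *Atg4c* (-0.0096), with a minimum of 10 counts *Ulk1* (-0.014) and *Becn1* (-0.018), with limma-voom *Becn1* (-0.0089) and with the replicate block *Becn1* (-0.0090). With a library left out, the log2 fold change ran from -0.055 to 0.16 for *Ulk1*, -0.068 to 0.21 for *Atg13*, -0.12 to 0.17 for *Becn1*, -0.12 to 0.24 for *Atg2a*, -0.043 to 0.18 for *Atg4c*, -0.17 to 0.077 for *Optn* and -0.23 to 0.049 for *Bnip3*. The share of *Gabarap* in the ATG8 family changed sign in CPM (1.65 points). The cause of these changes was not tested.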
